A study of Mus musculus with 18 samples.

Results

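The genes described here belong to 4 enzyme families that modify foreign compounds and many of the body's own lipids: the cytochromes P450 (Cyp), the UDP-glucuronosyltransferases of families 1 and 2 (Ugt), the glutathione S-transferases with their microsomal relatives (Gst and Mgst), and the sulfotransferases (Sult). They were chosen by gene symbol, without the sterol demethylase Cyp51 and without pseudogenes marked as such, and 159 of the 24047 rows of the count table had such a symbol. A gene was described where at least 10 reads were counted in at least 3 of the 18 libraries, which 74 of the 159 reached (39 of 99 Cyp, 7 of 18 Ugt, 22 of 24 Gst and 6 of 18 Sult genes). Of the other 85 genes, 34 had no count in any library. Among those below the minimum were Cyp1a1 and Cyp1b1, the classical targets of the aryl hydrocarbon receptor (2 and 0 counts over all libraries), the ethanol-oxidizing Cyp2e1 (4 counts) and Cyp2b10, the usual marker of CAR activity in liver (19 counts). The 159 genes together took between 0.469% and 1.43% of the counts of a library.

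The samples were crypts of colon epithelium from C57BL/6 mice, isolated with EDTA and measured by RNA-Seq, with 3 libraries in each of 6 groups. Wild-type mice (WT) and mice lacking Ern2 (Ern2-/-), an endoplasmic reticulum stress sensor of mucus-producing epithelium, were either germ free (GF), raised conventionally under specific pathogen-free conditions (CONV), or born germ free and colonized for 14 days with cecal contents of WT donors (COLONIZED). The donors were WT for both genotypes, so that COLONIZED-Ern2-/- mice did not receive the microbiota of CONV-Ern2-/- mice. The sources used here give no age or sex. A legend in the study's supplement calls the points of RNA-seq plots of CONV mice individual animals, but for the GF and COLONIZED libraries the sources do not say whether those of a group came from separate mice, so p-values there measure the spread between these libraries, which may be technical in part. The comparisons ask which detoxifying enzymes of the crypt respond to gut microbes and whether the response differs in mice without Ern2.

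Library totals lay between 5865619 and 23154481 counts. Ern2 itself did not separate the labels: it had 1909 to 3100 normalized counts in the WT libraries, and 3 libraries labelled Ern2-/- reached or passed that range, COLONIZED-Ern2-/- replicate 1 with 2567 and GF-Ern2-/- replicates 1 and 3 with 2877 and 3336. These 3 are called the libraries against their label. In the other 6 libraries labelled Ern2-/- Ern2 had 386 to 1885 counts. Y-linked genes were expressed in 3 of 3 CONV-Ern2-/-, 2 of 3 COLONIZED-Ern2-/-, 2 of 3 GF-Ern2-/-, 1 of 3 CONV-WT, 2 of 3 COLONIZED-WT and 0 of 3 GF-WT libraries. The 6 colonocyte markers, none of them at 0 in any library, summed to 34646 to 104099 normalized counts in GF-WT, 19999 to 35040 in COLONIZED-WT, 21225 to 30949 in CONV-WT, 46540 to 94523 in GF-Ern2-/-, 24410 to 32999 in COLONIZED-Ern2-/- and 64248 to 84548 in CONV-Ern2-/-. Since these are bulk samples, fewer cells of a type and less RNA per cell cannot be told apart. Mesenchymal, immune and muscle marker sums were at most 141, 276 and 139. The sum of 4 small-intestinal markers (lactase at no more than 5.52) was higher without microbes, with 230 to 1508 in GF-WT and 645 to 5113 in GF-Ern2-/- (the highest in replicate 2) against 78.3 to 131 in CONV-WT, 103 to 148 in COLONIZED-WT, 82.8 to 309 in CONV-Ern2-/- and 197 to 347 in COLONIZED-Ern2-/-. CONV-WT replicate 3 also stood apart, with a goblet marker sum of 71557 against 449234 and 404880 in the other CONV-WT libraries.

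Detoxification is commonly divided into phases. Phase 1 enzymes, above all the Cyp oxidases of the endoplasmic reticulum, add or expose a reactive group. Phase 2 enzymes attach glucuronic acid (Ugt), glutathione (Gst) or sulfate (Sult), and transporters then carry the conjugates out of the cell. The same enzymes act on bile acids, steroids, retinoids and eicosanoids, and their genes are controlled by receptors that sense foreign or lipid ligands, among them the aryl hydrocarbon receptor, PXR and CAR, by the oxidant-responsive factor NRF2 and, in epithelium of the gut and liver, by HNF4A. In the colon they meet compounds from food and from bacterial metabolism, at the surface cells and along the upper crypt.

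Several of the genes lie side by side. On GRCm38, with GENCODE M21 gene models, 6 Cyp2d genes occupied chr15:82370527-82794294, 7 Cyp2c genes chr19:39007019-40187333, 7 Cyp4f genes chr17:32452723-32947402, 7 Gstm genes chr3:107895821-108044894, 3 Ugt1a genes chr1:88095062-88220002 and 4 Ugt2b genes chr5:86889767-87140318. Near-identical neighbours can share reads. Of all 75-base windows of the gene's longest protein-coding transcript, 100% of those of Ugt1a6a, 86.3% of Gsta1, 57.7% of Gstp1 and of Ugt1a1, 43.2% of Cyp2c69, 28.5% of Cyp2c68, 26.7% of Cyp2d10, 21.6% of Gstm3, 5.32% of Cyp2d12 and 4.67% of Cyp2d34 occurred in another gene, so that their counts are uncertain at the level of single genes. The same holds for Cyp2c67 (36.0%), Ugt2b5 (30.4%), Cyp4a10 (19.1%), Cyp2d9 (16.7%), Cyp4f16 (16.1%) and Gstm1 (14.8%), among others. No share was measured for Cyp2d13, which has no position in these gene models.

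RefSeq promoters (GRCm38.p6, from 250 bases before to 50 bases after a start) were found for 63 of the 74 genes, 81 promoters in all, and 3 motifs were searched on both strands. Matches of the first 2 can overlap, where TGACNNNGC is followed by GTG. The aryl hydrocarbon receptor core GCGTG was in 25.9% of these promoters against 32.4% of all 32851 mouse promoters, and the antioxidant response core TGACNNNGC in 11.1% against 12.4%. The HNF4A motif CAAAGTCCA was in 7.41% against 0.475%, which were 6 promoters, and 5 of these belonged to the Cyp2c cluster on chromosome 19. These 5 are shown because the cluster holds both the most abundant Cyp genes of the crypt and several of those lower with microbes, and neighbouring copies can be compared base by base. Each line runs 5′ to 3′ from 150 bases to 1 base before the start, with the motif in capitals, and the windows are chr19:39060856-39061005 on the plus strand (Cyp2c65) and, on the minus strand, chr19:39649043-39649192 (Cyp2c67), chr19:39741102-39741251 (Cyp2c68), chr19:39886770-39886919 (Cyp2c69) and chr19:40187287-40187436 (Cyp2c70).
Cyp2c65: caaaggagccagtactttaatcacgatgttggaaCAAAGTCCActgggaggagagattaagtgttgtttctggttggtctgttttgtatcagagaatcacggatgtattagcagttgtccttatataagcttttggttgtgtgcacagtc
Cyp2c67: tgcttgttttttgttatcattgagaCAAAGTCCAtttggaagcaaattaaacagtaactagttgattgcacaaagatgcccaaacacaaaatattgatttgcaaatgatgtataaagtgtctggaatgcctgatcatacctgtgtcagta
Cyp2c68: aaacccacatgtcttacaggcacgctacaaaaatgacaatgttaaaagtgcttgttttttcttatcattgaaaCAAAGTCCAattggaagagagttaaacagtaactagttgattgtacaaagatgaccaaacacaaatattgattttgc
Cyp2c69: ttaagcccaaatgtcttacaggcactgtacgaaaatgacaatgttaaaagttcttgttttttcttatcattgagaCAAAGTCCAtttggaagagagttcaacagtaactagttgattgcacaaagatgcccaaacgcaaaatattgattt
Cyp2c70: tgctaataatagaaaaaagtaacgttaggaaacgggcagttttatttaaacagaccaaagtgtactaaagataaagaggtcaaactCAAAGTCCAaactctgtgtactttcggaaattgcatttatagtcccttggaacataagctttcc
The motif began 116, 125, 77, 75 and 64 bases before the start of Cyp2c65, Cyp2c67, Cyp2c68, Cyp2c69 and Cyp2c70, and the sixth match lay 25 bases after the start of Sult1b1. The promoter of Gsta3, which like Gstm3 was called higher in all 4 comparisons with GF mice, held the antioxidant response core 121 bases before its start and is shown for that (chr1:21240435-21240584, plus strand, the core in capitals).
Gsta3: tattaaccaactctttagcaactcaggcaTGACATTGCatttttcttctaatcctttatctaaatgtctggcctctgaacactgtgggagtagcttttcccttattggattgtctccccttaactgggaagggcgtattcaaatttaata
The promoter of Gstm3 held no antioxidant response core. A promoter of Cyp4f14, which was called lower in the same 4 comparisons, held the core 127 bases before its start. A match is a description of these letters and not evidence of binding.

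Per kilobase of merged exons, the highest mean levels over the 18 libraries were those of Cyp2c55, a colon enzyme that hydroxylates arachidonic acid (14767 normalized counts per kilobase), Mgst3 (6617), the phenol sulfotransferase Sult1a1 (5744), Gsto1 (5271), Gstm1 (2996), Sult1d1 (2337), Ugt2b34 (2060) and Cyp2c65 (1689). The order differed by group: in GF-WT Mgst3 (7253) and Gsto1 (6123) were above Cyp2c55 (5717), which had the highest mean in the other groups. In GF-Ern2-/- that place of Cyp2c55 rested on replicate 2. In replicates 1 and 3 it had 2603 and 5432 counts, fewer than the 7655 and 6973 of Mgst3, whose exons are shorter. Cyp2c55 alone ranged from 1504 to 101882 normalized counts between libraries. The 3 GF-WT libraries had 1504, 13477 and 19236 counts, those of CONV-WT 8716, 24032 and 15674 and those of COLONIZED-WT 21735, 19497 and 37670. The GF-Ern2-/- libraries had 2603, 64594 and 5432 counts, the CONV-Ern2-/- libraries 101882, 28668 and 49588 and the COLONIZED-Ern2-/- libraries 26899, 40132 and 48949. The COLONIZED-WT libraries lay above the highest GF-WT library by a small margin, the other groups with microbes overlapped the GF group of their genotype, and Cyp2c55 was not called in any comparison: the log2 change was 1.21 in COLONIZED-WT versus GF-WT (DESeq2 adjusted p = 0.354) and 0.49 in CONV-WT versus GF-WT (adjusted p = 0.719), where it became −0.036 without GF-WT replicate 1. Of the 74 genes, 53 reached 10 counts in every library. Cyp11a1, Cyp2c67, Cyp2c70 and Cyp4a10 reached the minimum in GF libraries and in no other, and Cyp3a44 and Sult4a1 in no GF library, so that these 6 could pass only through the groups where they were high.

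**Figure D1:**
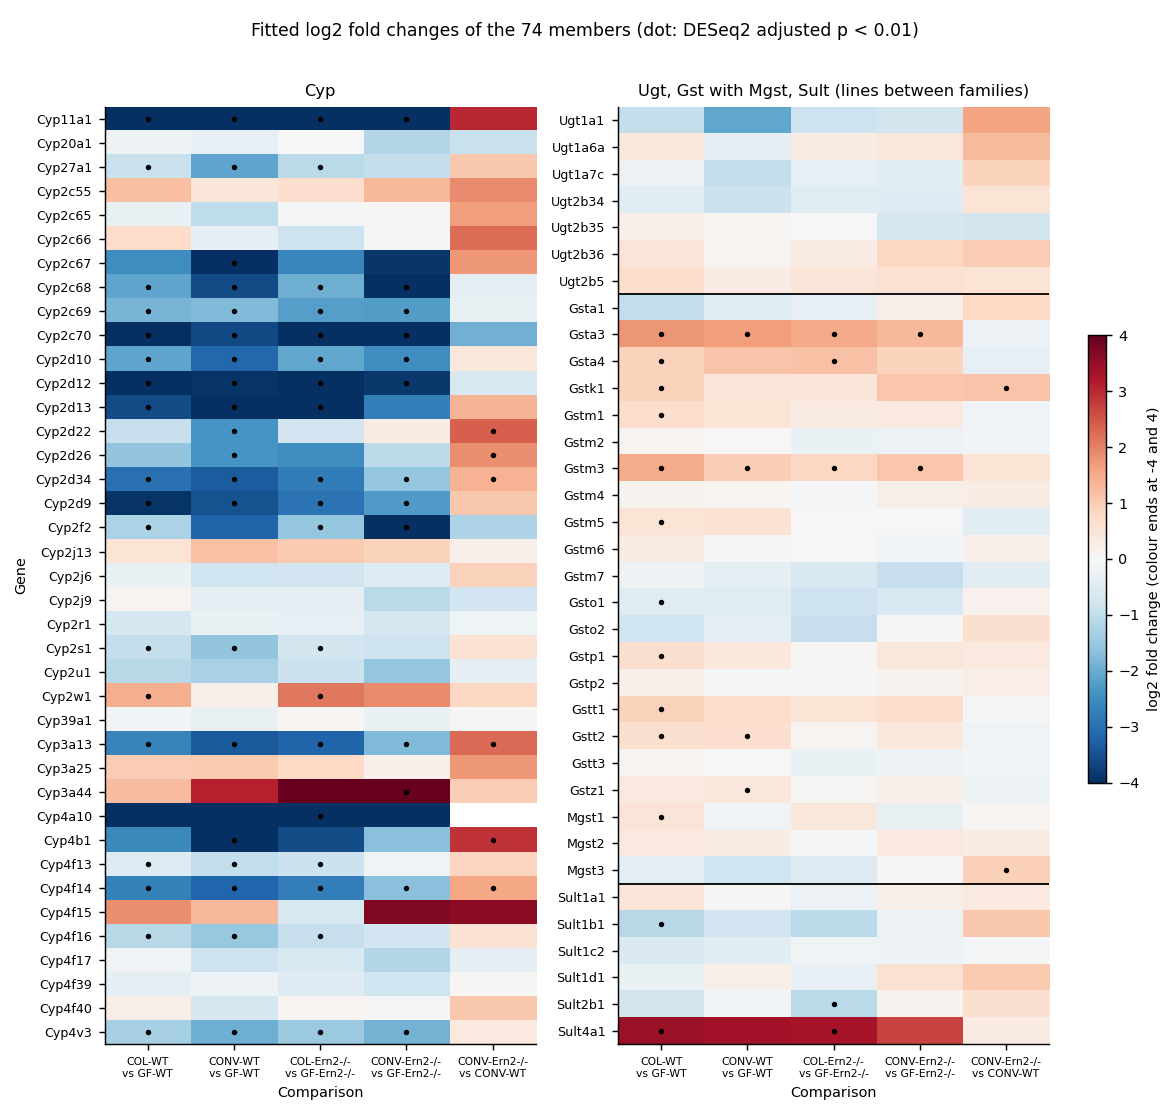
Log2 fold change of each of the 74 genes (rows, by family) in 5 comparisons (columns), with colour from blue (lower) to red (higher) ending at −4 and 4 and a dot where the DESeq2 adjusted p is under 0.01. In CONV-WT versus GF-WT the 20 Cyp genes with a dot are all lower and the 4 Gst genes with a dot all higher; the values of genes at 0 in a group depend on the fit and are no measure of size, and Cyp4a10 is blank where both groups are at 0.

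In WT mice with gut microbes, many single Cyp genes were lower and a smaller number of Gst genes higher, while the summed levels of both families overlapped those of GF-WT. The Cyp sum was 21085 to 67859 normalized counts in GF-WT, 17487 to 34089 in CONV-WT and 31729 to 53316 in COLONIZED-WT, and the Gst sum 33811 to 39539, 33805 to 36782 and 39217 to 40398 in the same order. Cyp2c55, which was not called, was a large part of the Cyp sum with microbes. Its mean was 11405.5 of a mean sum of 45643 in GF-WT. In CONV-WT it was 16141 of 24476 and in COLONIZED-WT 26301 of 39444. A sum without Cyp2c55 was not computed, so that the overlap says nothing about the other Cyp genes together. In CONV-WT versus GF-WT 24 of the 74 genes passed an adjusted p of 0.01, 4 higher and 20 lower, where 11.0% of all tested genes were called (5.68% higher, 5.28% lower). In COLONIZED-WT versus GF-WT 31 of the 73 genes tested passed, 12 higher and 19 lower, where 17.8% of all tested genes were called (9.07% higher, 8.7% lower). Both comparisons share the 3 GF-WT libraries. By family, 20 of 39 Cyp genes fell in CONV-WT and none rose (median log2 change −1.59, against −0.00099 over all genes), and in COLONIZED-WT 17 of 38 fell and Cyp2w1 rose (median −1.02 against −0.012). Without the 5 Cyp genes that could pass the count minimum only through GF libraries or only through those with microbes, whose direction the minimum fixed, 17 of 34 fell in CONV-WT (median −1.42) and 15 of 34 in COLONIZED-WT (median −0.91). Of the 22 Gst genes 4 rose in CONV-WT (median 0.18), and 10 rose and Gsto1 fell in COLONIZED-WT (median 0.38). No Ugt gene was called in either comparison, and of the 6 Sult genes Sult4a1 rose and Sult1b1 fell in COLONIZED-WT.

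The edgeR quasi-likelihood test, which allows for more uncertainty in the spread, called none of the 74 in CONV-WT versus GF-WT at the same threshold (37 had an unadjusted p under 0.05, and 0.175% of all genes were called) and 13 in COLONIZED-WT versus GF-WT (4.94% of all genes). With the Y-linked pattern as a covariate 21 and 11 genes were called, where all 3 GF-WT libraries lacked Y-linked expression. Leaving out 1 library gave 16 to 31 and 24 to 37 genes. The groups did not overlap for 10 genes higher and 29 lower in CONV-WT (18.3% and 18.6% of all genes) and for 17 higher and 25 lower in COLONIZED-WT (23.5% and 24.1%). Of the 6 colonocyte markers 3 fell in CONV-WT and 2 in COLONIZED-WT, with none higher, and 1 of the 4 small-intestinal markers fell in each (median log2 change −3.67 and −3.88). Of the 4 tuft markers 3 rose in CONV-WT and 4 in COLONIZED-WT, and of the 7 goblet markers 1 rose and 2 fell in CONV-WT and 4 rose and 2 fell in COLONIZED-WT, while 1 of 3 muscle markers rose in CONV-WT. The part of these cell types in the lower Cyp and higher Gst levels was not tested.

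The Cyp2d genes, the mouse relatives of the human drug-metabolizing enzyme CYP2D6, fell together: in CONV-WT 7 of 7 were called lower (median log2 change −3.32) and in COLONIZED-WT 5 of 7 (median −2.98). Cyp2d34 (chr15:82615965-82620946, minus strand) had 1775, 2980 and 4131 normalized counts in GF-WT, 303, 308 and 283 in CONV-WT and 285, 546 and 292 in COLONIZED-WT. All 6 libraries with microbes lay below the lowest GF-WT library. The log2 change was −3.32 ± 0.34 (SE, DESeq2 adjusted p = 8.99e-20, edgeR adjusted p = 0.0106) in CONV-WT and −2.98 ± 0.32 (DESeq2 adjusted p = 5.51e-18, edgeR adjusted p = 0.00575) in COLONIZED-WT. Cyp2d12 had 158, 221 and 403 counts in GF-WT, 13.2, 20.7 and 18.3 in CONV-WT and 17.1, 11.8 and 15.1 in COLONIZED-WT, again with no overlap. For Cyp2d12 the log2 change was −3.92 ± 0.47 (adjusted p = 4.07e-14) in CONV-WT and −4.15 ± 0.39 (adjusted p = 1.28e-23) in COLONIZED-WT, both by DESeq2. Cyp2d10 had 370, 577 and 709 counts in GF-WT, 88.6, 75.1 and 21.9 in CONV-WT and 110, 164 and 106 in COLONIZED-WT. Its groups did not overlap either, and it fell by 3.15 ± 0.50 and by 2.12 ± 0.28 on the log2 scale in CONV-WT and COLONIZED-WT. Cyp2d13 (309, 262 and 453 counts in GF-WT) went down to 24.5, 22.7 and 0 in CONV-WT and to 20, 47.7 and 18.3 in COLONIZED-WT. Cyp2d9 (73, 127 and 392) went down to 13.2, 23.7 and 16.4 and to 12.8, 19.1 and 7.14. These 5 genes were called in both comparisons in each fit that left out 1 library.

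The remaining Cyp2d genes, Cyp2d22 and Cyp2d26, were called lower in CONV-WT and not in COLONIZED-WT, and neither was called between those groups. Cyp2d22 had 227, 333 and 504 counts in GF-WT, 48.1, 80 and 84 in CONV-WT and 146, 175 and 237 in COLONIZED-WT. It fell in CONV-WT (log2 change −2.35 ± 0.40, DESeq2 adjusted p = 3.08e-07), where no library reached the GF-WT range, and in COLONIZED-WT its groups overlapped (−0.93, adjusted p = 0.0115). Cyp2d26 varied widely in GF-WT, with 496, 2113 and 2629 counts, against 284, 365 and 373 in CONV-WT and 312, 519 and 924 in COLONIZED-WT. Its call in CONV-WT (log2 change −2.37, adjusted p = 0.000379) was lost without GF-WT replicate 2 (0.0127), GF-WT replicate 3 (0.0171) or CONV-WT replicate 3 (0.016), and in COLONIZED-WT the change was −1.57 ± 0.77 (adjusted p = 0.114).

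**Figure D2:**
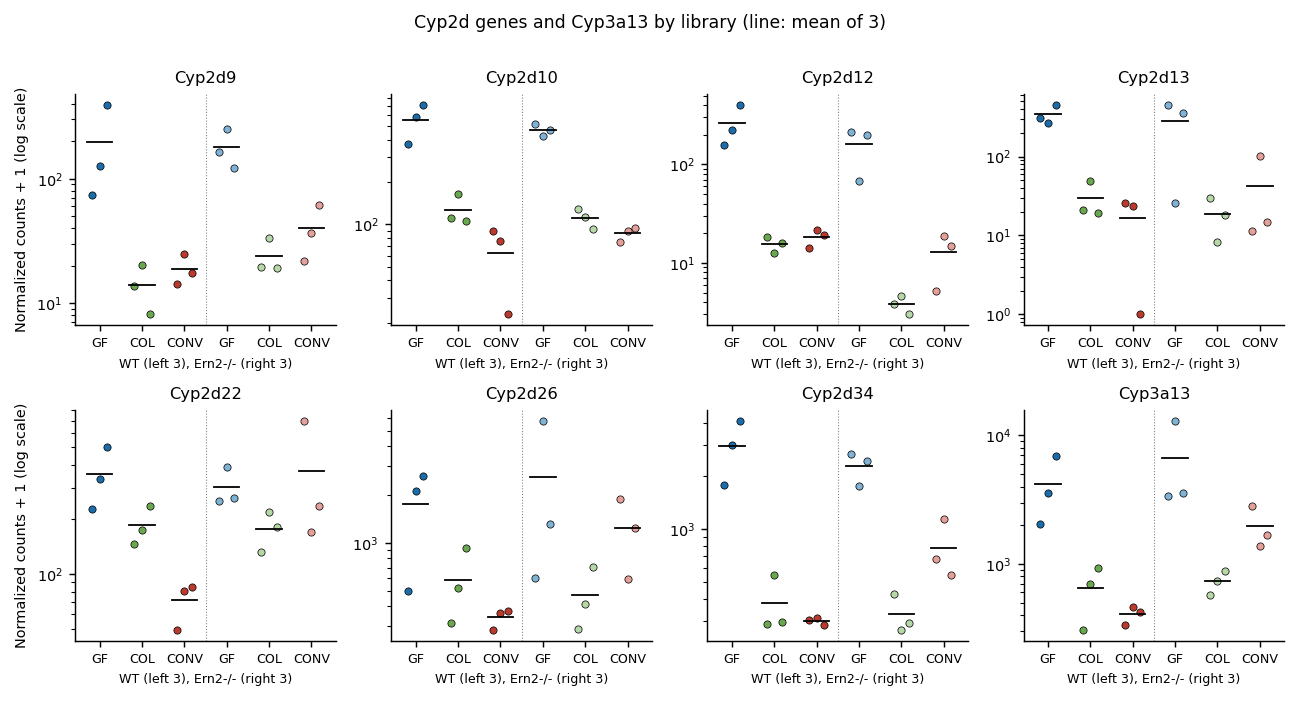
Normalized counts plus 1 (log axis) of 7 Cyp2d genes and Cyp3a13 in the 6 groups, WT at left and Ern2-/- at right of each panel (COL stands for COLONIZED); points are the 3 libraries of a group and the line is their mean. In WT the 3 GF libraries of Cyp2d34 sit between 1775 and 4131 and the 6 libraries with microbes between 283 and 546.

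Cyp3a13, the intestinal member of the drug-metabolizing Cyp3a subfamily (chr5:137892932-137921619, minus strand), had 2050, 3545 and 6894 normalized counts in GF-WT, 335, 461 and 424 in CONV-WT and 305, 703 and 934 in COLONIZED-WT. The highest library with microbes had less than the lowest GF-WT library. It fell by 3.37 ± 0.45 on the log2 scale in CONV-WT (DESeq2 adjusted p = 1.24e-11) and changed by −2.68 ± 0.65 in COLONIZED-WT (adjusted p = 0.000413), and kept both calls without any 1 library. Cyp4f14, an omega-hydroxylase of leukotriene B4 and fatty acids (chr17:32905070-32917342, minus strand), had 1848, 4528 and 10561 counts in GF-WT, 667, 663 and 581 in CONV-WT and 503, 964 and 1149 in COLONIZED-WT. Its groups did not overlap, and the log2 change was −3.16 ± 0.56 in CONV-WT (adjusted p = 1.17e-06). In COLONIZED-WT it was −2.69 ± 0.73 (adjusted p = 0.00213), a call lost without COLONIZED-WT replicate 1 (0.0323), 2 (0.0197) or 3 (0.0113) and without GF-WT replicate 2 (0.0147) or 3 (0.0136). Without GF-WT replicate 3 the log2 change was −1.86. Cyp4b1, which activates several lung and bladder toxins, had 218, 3262 and 4024 counts in GF-WT, 58.5, 168 and 163 in CONV-WT and 205, 256 and 781 in COLONIZED-WT. It was called in CONV-WT (log2 change −4.28 ± 0.84, adjusted p = 1.35e-05, but 0.0208 without CONV-WT replicate 1) and not in COLONIZED-WT, where the groups overlapped (−2.59 ± 1.13, adjusted p = 0.071).

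Within the Cyp2c cluster, the genes of highest level and those that fell were different ones. Cyp2c68 had 1772, 2023 and 1529 normalized counts in GF-WT, 299.9, 135 and 12.8 in CONV-WT and 347, 560 and 323 in COLONIZED-WT, with no overlap. It fell by 3.57 ± 0.79 in CONV-WT (DESeq2 adjusted p = 0.000149) and by 2.10 ± 0.23 in COLONIZED-WT (adjusted p = 6.16e-18, edgeR adjusted p = 0.00455) on the log2 scale. Cyp2c69 had 134, 254 and 262 counts in GF-WT, 81.1, 71.1 and 36.5 in CONV-WT and 57, 60.2 and 61.9 in COLONIZED-WT. Its log2 change was −1.85 ± 0.29 in COLONIZED-WT (adjusted p = 1.52e-08) and −1.77 ± 0.42 in CONV-WT (adjusted p = 0.000429, but 0.0213 without GF-WT replicate 2 and 0.0203 without GF-WT replicate 3). Cyp2c70, the enzyme that makes muricholic acids in mouse liver, was low throughout, with 16.1, 13.3 and 24.3 counts in GF-WT, 2.83, 0.988 and 0 in CONV-WT and 0, 0.735 and 0.794 in COLONIZED-WT. Cyp2c67 had 9.11 to 11.1 counts in GF-WT and 0 in each CONV-WT library, at least 8.57-fold lower with 3 counts over the group as the floor. Cyp2c65 (534, 3353 and 4553 counts in GF-WT, 1077, 2097 and 1043 in CONV-WT, 1614, 2214 and 3050 in COLONIZED-WT) and Cyp2c66 overlapped between groups and, like Cyp2c55, were not called. The CONV-WT calls of Cyp2c67 and Cyp2c70 were kept in 1 of 6 fits with a library left out, that without CONV-WT replicate 3 (otherwise the adjusted p was 0.0227 to 0.0295 and 0.0164 to 0.0554, and none was given for Cyp2c67 without GF-WT replicate 2 or 3). Of the promoters printed above, those of Cyp2c68 and Cyp2c69 belonged to genes called lower in CONV-WT and that of Cyp2c65, with the same motif, to a gene that was not called, while Cyp2c67 and Cyp2c70 could pass the count minimum only through GF libraries.

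**Figure D3:**
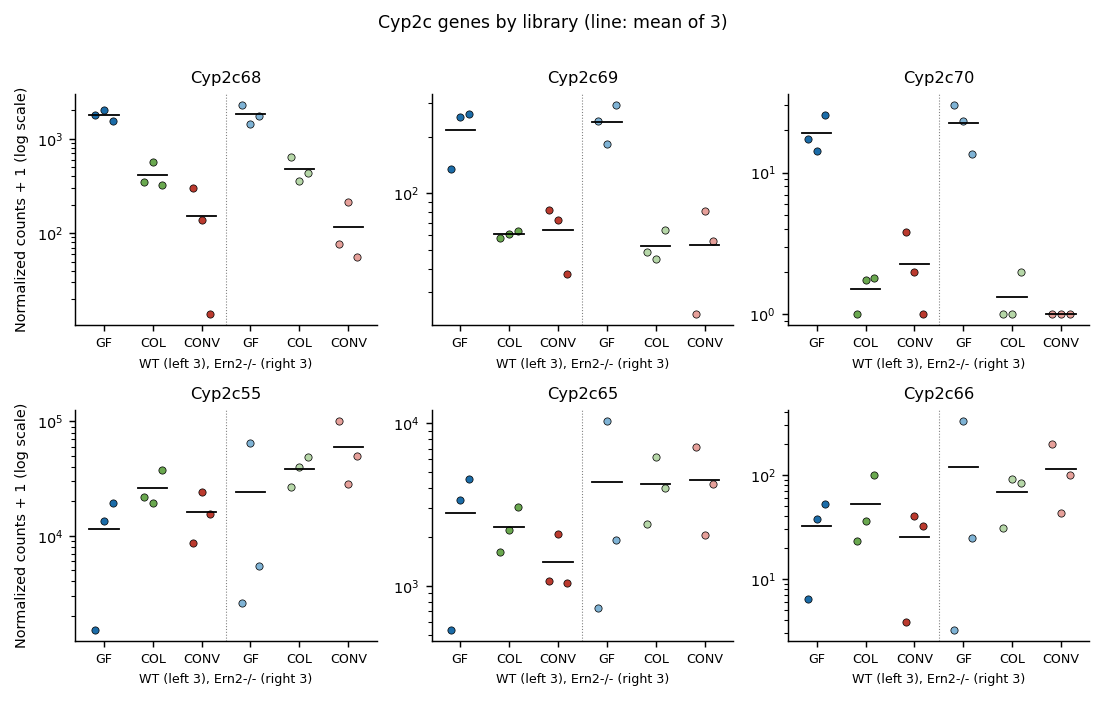
Normalized counts plus 1 (log axis) of 6 Cyp2c genes in the 6 groups, drawn as for the Cyp2d genes with 3 libraries and their mean per group. Cyp2c68, Cyp2c69 and Cyp2c70 are lower in each group with microbes than in the GF group of its genotype, while the points of Cyp2c65 and Cyp2c66 overlap between these groups. Cyp2c70 could pass the count minimum only through GF libraries, which fixed its direction.

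Other Cyp genes of known single roles fell as well. Cyp11a1, which starts steroid synthesis by cutting the side chain of cholesterol (chr9:58006411-58027023, plus strand), had 89.9, 65.1 and 47.2 normalized counts in GF-WT, 0, 0.735 and 1.59 in COLONIZED-WT, while each CONV-WT library had 0, at least 58.9-fold lower than GF-WT by the same floor. Cyp11a1 could pass the count minimum only through GF libraries, so that the minimum fixed its direction and nothing is read from it. Cyp2f2, known for activating naphthalene in airway cells, had 843, 558 and 399 counts in GF-WT, 143, 50.4 and 1.83 in CONV-WT and 256, 318 and 173 in COLONIZED-WT. The WT groups with microbes lay below GF-WT in every library, and the call was made in COLONIZED-WT (log2 change −1.26 ± 0.30, DESeq2 adjusted p = 0.000279). The CONV-WT change was −3.21 ± 1.27 (adjusted p = 0.0571), and it was called without CONV-WT replicate 3 (2.01e-07). Cyp2s1, an enzyme of surface epithelia that metabolizes retinoids and eicosanoids, had 2756, 3599 and 3929 counts in GF-WT, 1432, 1346 and 663 in CONV-WT and 1594, 2146 and 1553 in COLONIZED-WT. It fell by 1.59 ± 0.35 in CONV-WT (adjusted p = 0.000116) and by 0.95 ± 0.19 in COLONIZED-WT (adjusted p = 1.86e-05) on the log2 scale. The sterol 27-hydroxylase Cyp27a1 fell by 2.12 and 0.89, Cyp4f16 by 1.53 and 1.10, Cyp4f13 by 0.99 and 0.51 and Cyp4v3 by 1.94 and 1.33 in CONV-WT and COLONIZED-WT. The Cyp4f13 call in COLONIZED-WT was lost without COLONIZED-WT replicate 1 (0.0494) or 2 (0.0272) or GF-WT replicate 2 (0.0371) or 3 (0.0276), and the Cyp4v3 call in CONV-WT without GF-WT replicate 2 (0.0109) or 3 (0.0163). Cyp2w1, an orphan enzyme known from fetal colon and colon tumours, was the Cyp gene called higher in COLONIZED-WT, with 118, 91.8 and 212 counts against 25.4, 63 and 65.3 in GF-WT (log2 change 1.46, adjusted p = 0.00277, but 0.08 without COLONIZED-WT replicate 3 and above 0.01 without COLONIZED-WT replicate 1 (0.0189) or GF-WT replicate 1 (0.0104) or 2 (0.0108)).

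Among the conjugating enzymes, the Gst family held the called increases other than that of Sult4a1. Gsta3, an alpha-class enzyme that conjugates the epoxide of aflatoxin in mice (chr1:21240589-21265661, plus strand), had 106, 138 and 172 normalized counts in GF-WT, 558, 495 and 272 in CONV-WT and 494, 455 and 456 in COLONIZED-WT. Every WT library with microbes exceeded every GF-WT library, and the log2 change was 1.76 ± 0.20 in COLONIZED-WT (DESeq2 adjusted p = 2.74e-15, edgeR adjusted p = 0.00453) and 1.66 ± 0.35 in CONV-WT (DESeq2 adjusted p = 7.73e-05, edgeR adjusted p = 0.0318). Gstm3, a mu-class enzyme (chr3:107963696-107969283, minus strand), had 810, 642 and 675 counts in GF-WT, 1166, 1361 and 1724 in CONV-WT and 2118, 1679 and 2123 in COLONIZED-WT. It rose by 1.49 ± 0.16 in COLONIZED-WT (adjusted p = 1.03e-17). In CONV-WT it rose by 0.99 ± 0.23 (adjusted p = 0.000314), a call lost without CONV-WT replicate 2 (0.0139) or GF-WT replicate 2 (0.0256) or 3 (0.018).

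Most other Gst increases were under 1 on the log2 scale and were called in COLONIZED-WT. Gstk1, the kappa-class enzyme of mitochondria and peroxisomes, had 731, 969 and 802 counts in GF-WT, 918, 1101 and 1622 in CONV-WT and 1548, 1379 and 1808 in COLONIZED-WT. It rose by 0.93 ± 0.17 in COLONIZED-WT (DESeq2 adjusted p = 1.45e-06), and in CONV-WT, where the lowest library overlapped GF-WT, the change was 0.53 (adjusted p = 0.189). Gstt1 (325, 329 and 219 counts in GF-WT against 542, 513 and 593 in COLONIZED-WT) also rose by 0.93, Gstm1 by 0.71, Gstp1 by 0.64, Gstt2 by 0.63, Gstm5 by 0.56 and the microsomal Mgst1 by 0.51, while Gsto1, which reduces dehydroascorbate, fell by 0.49. Gsta4, the enzyme that conjugates the lipid peroxidation product 4-hydroxynonenal, had 327, 642 and 686 counts in GF-WT, 866, 1385 and 1441 in CONV-WT and 1212, 863 and 1051 in COLONIZED-WT. The groups did not overlap, but the call in COLONIZED-WT (log2 change 0.93, adjusted p = 0.00393) was lost without COLONIZED-WT replicate 1 (0.0675) or 3 (0.035) or GF-WT replicate 2 (0.0114), and in CONV-WT the change was 1.15 with an adjusted p of 0.0146. Of the small changes in COLONIZED-WT, that of Mgst1 was lost without GF-WT replicate 1 (0.0273) or 3 (0.0187) or COLONIZED-WT replicate 2 (0.0487) or 3 (0.0698), that of Gstp1 without COLONIZED-WT replicate 3 (0.0163), that of Gstm5 without COLONIZED-WT replicate 2 (0.0113) and that of Gsto1 without COLONIZED-WT replicate 1 (0.0104) or 3 (0.0131). Gstt2 (0.67) and Gstz1 (0.46), called higher in CONV-WT, kept that call without CONV-WT replicate 3 but not without any of the other 5 libraries (adjusted p of 0.0387 to 0.109 and of 0.124 to 0.226).

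**Figure D4:**
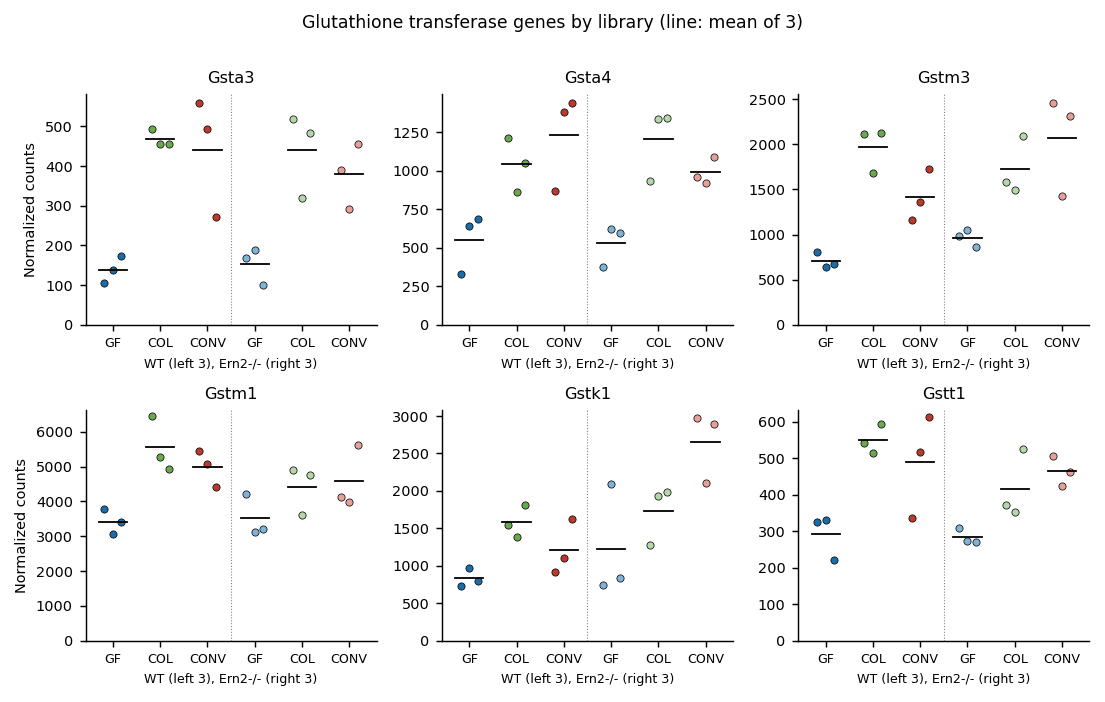
Normalized counts (linear axis from 0) of Gsta3, Gsta4, Gstm3, Gstm1, Gstk1 and Gstt1 in the 6 groups, with 3 libraries and their mean per group. In WT the Gsta3 points of COLONIZED and CONV libraries lie between 272 and 558 and those of GF libraries between 106 and 172.

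Of the sulfotransferases and glucuronosyltransferases, Sult1b1 and Sult4a1 were called in WT mice, both in COLONIZED-WT versus GF-WT. Sult1b1, which sulfates phenols and thyroid hormones (chr5:87513339-87538195, minus strand), had 2335, 3075 and 2969 normalized counts in GF-WT, 1008, 1252 and 2748 in CONV-WT and 870, 1415 and 1565 in COLONIZED-WT. It fell by 1.11 ± 0.22 on the log2 scale in COLONIZED-WT (DESeq2 adjusted p = 1.66e-05, called without any 1 library), and in CONV-WT replicate 3 lay within the GF-WT range (−0.75, adjusted p = 0.203), without which the change was −1.31 (adjusted p = 1.05e-09). Sult4a1, a sulfotransferase of brain with no settled substrate, had 0.701 to 1.39 counts in GF-WT and 15.7, 5.14 and 10.3 in COLONIZED-WT, a call kept in 1 of 6 fits with a library left out (adjusted p of 0.0181, 0.03 and 0.02 without GF-WT replicate 1, 2 and 3, and none given without COLONIZED-WT replicate 1 or 3). Sult4a1 could pass the count minimum only through libraries with microbes, which fixed its direction. Sult1a1 had 6598 to 8086 counts in GF-WT and 8575 to 11484 in COLONIZED-WT (log2 change 0.47, adjusted p = 0.0147). Ugt1a1, the bilirubin-conjugating enzyme, had 263, 1474 and 2034 counts in GF-WT, 184, 464 and 259 in CONV-WT and 551, 556 and 841 in COLONIZED-WT. GF-WT replicate 1 lay within the range of the CONV-WT libraries, and the change of −2.07 ± 0.68 in CONV-WT (adjusted p = 0.017) was called without that library (1.27e-06). Ugt2b34, the Ugt gene of highest level per kilobase, had 9095, 10084 and 12160 counts in GF-WT, 6538, 7287 and 3680 in CONV-WT and 5677, 7842 and 9029 in COLONIZED-WT, below GF-WT in each library. Its log2 change was −0.85 in CONV-WT (adjusted p = 0.0359, but 0.00446 without CONV-WT replicate 3) and −0.47 in COLONIZED-WT (adjusted p = 0.0603). Ugt2b5 had 118, 474 and 514 counts in GF-WT, 289, 771 and 349 in CONV-WT and 514, 473 and 789 in COLONIZED-WT, with overlap.

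In Ern2-/- mice the same comparisons used other libraries. In CONV-Ern2-/- versus GF-Ern2-/- 15 of 74 genes were called, 3 higher and 12 lower, where 4.1% of all genes were called (1.47% higher, 2.63% lower). In COLONIZED-Ern2-/- versus GF-Ern2-/- 24 were called, 5 higher and 19 lower, where 7.65% of all genes were called (3.83% higher, 3.82% lower). Of the 39 Cyp genes 12 fell and Cyp3a44 rose in CONV (median log2 change −1.07), and 18 fell and Cyp2w1 rose in COLONIZED (median −0.87), against medians over all genes of −0.0038 and −0.024. Without the same 5 Cyp genes 10 of 34 fell in CONV (median −0.998) and 15 of 34 in COLONIZED (median −0.85). The COLONIZED call of Cyp2w1 was lost without COLONIZED-Ern2-/- replicate 2 (0.0148) or 3 (0.0224). Cyp3a44 (0, 0 and 1.04 counts in GF-Ern2-/- and 24.0, 11.1 and 13.8 in CONV-Ern2-/-) kept its call in 1 of 6 fits with a library left out, that without GF-Ern2-/- replicate 3 (otherwise 0.0117 to 0.0928, and none given without CONV-Ern2-/- replicate 1). Of the genes called in WT, 13 of 24 (54.2%) in CONV and 22 of 31 (71.0%) in COLONIZED were also called in Ern2-/-, in the same direction, which were 86.7% of the 15 and 91.7% of the 24 called there. Over all genes, 16.8% of those called in CONV-WT and 31.2% of those called in COLONIZED-WT were also called in Ern2-/- in the same direction, which were 44.3% and 76.2% of those called there. The 13 genes were Cyp11a1, Cyp2c68, Cyp2c69, Cyp2c70, Cyp2d9, Cyp2d10, Cyp2d12, Cyp2d34, Cyp3a13, Cyp4f14, Cyp4v3, Gsta3 and Gstm3. Cyp11a1 and Cyp2c70, shared under both conditions, could pass the count minimum only through GF libraries. Sult4a1, shared after colonization, could pass it only through libraries with microbes. The minimum fixed the direction of these genes for both genotypes, so that nothing is read from their agreement. The shares above include them and were not computed without them. In CONV-Ern2-/- the call of Cyp4v3 was lost without CONV-Ern2-/- replicate 2 (0.054) or 3 (0.0879) or GF-Ern2-/- replicate 1 (0.0158) or 2 (0.0518), and that of Cyp11a1 without CONV-Ern2-/- replicate 1 (0.0114) or GF-Ern2-/- replicate 3 (0.0204). The 9 genes called in COLONIZED-WT alone were Gstk1, Gstm1, Gstm5, Gsto1, Gstp1, Gstt1, Gstt2, Mgst1 and Sult1b1, 8 of them Gst genes, but no member passed the test of the interaction of genotype with COLONIZED versus GF, as described further on.

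The edgeR test called Cyp2d10 in CONV-Ern2-/- (0.0325% of all genes) and Cyp2d10, Cyp2d12 and Cyp2d34 in COLONIZED-Ern2-/- (0.216% of all genes). Without the libraries against their label, which left GF-Ern2-/- replicate 2 as the lone GF library, 8 genes were called in CONV (Cyp2c68, Cyp2d9, Cyp2d10, Cyp2d26, Cyp2f2, Cyp3a13, Cyp4f14 and Cyp4v3, each lower) and 27 in COLONIZED, with the lone library assumed to vary like the other group. Leaving out 1 library gave 9 (without CONV-Ern2-/- replicate 3) to 21 genes in CONV and 14 (without COLONIZED-Ern2-/- replicate 2) to 27 in COLONIZED. In CONV 10 genes were higher and 22 lower without overlap (11.4% and 13.3% of all genes), and in COLONIZED 7 and 25 (16.6% and 17.3%). Of the 6 colonocyte markers 0 were called in CONV and 4 fell in COLONIZED, 1 of the 4 small-intestinal markers fell in each (median log2 change −3.45 and −6.17), and 2 and 1 of the 4 tuft markers rose. Of the 4 enteroendocrine markers 2 rose in each (median 1.68 and 2.02), of the 7 goblet markers 3 fell in CONV and 2 rose and 1 fell in COLONIZED, and 2 of the 4 hepatocyte markers (median −1.83) fell and 1 of 6 mesenchymal markers rose in CONV, while 1 of 3 endothelial markers fell in COLONIZED. Their part in the enzyme levels was not tested.

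Again Cyp2d genes fell, 4 of 7 in CONV and 5 of 7 in COLONIZED. Cyp2d34 had 2667, 1756 and 2434 normalized counts in GF-Ern2-/-, 426, 264 and 290 in COLONIZED-Ern2-/- and 667, 1129 and 546 in CONV-Ern2-/-. All libraries with microbes lay below the GF libraries, and the log2 change was −2.81 ± 0.26 in COLONIZED (DESeq2 adjusted p = 2.39e-23) and −1.56 ± 0.32 in CONV (adjusted p = 9.88e-05). Cyp2d10 had 516, 428 and 467 counts in GF-Ern2-/-, 127, 113 and 92.3 in COLONIZED-Ern2-/- and 74.1, 88.9 and 93.8 in CONV-Ern2-/-. It fell by 2.09 ± 0.22 and by 2.48 ± 0.27 on the log2 scale, with an edgeR adjusted p of 0.0059 and 0.00716. Cyp2d12 had 213, 66.2 and 197 counts in GF-Ern2-/-, 2.85, 3.6 and 2.01 in COLONIZED-Ern2-/- and 4.18, 17.8 and 13.8 in CONV-Ern2-/-, and the log2 change was −5.81 ± 0.65 and −3.86 ± 0.64. GF-Ern2-/- replicate 2, the library with the least Ern2, had the lowest Cyp2d12 level of its group and of Cyp2d13 also (450, 25.1 and 357 counts), so that Cyp2d13 overlapped COLONIZED-Ern2-/- (28.5, 7.2 and 17.1). The COLONIZED call of Cyp2d13 was kept without that library and lost without any 1 of the other 5 (0.0136 to 0.0762). For Cyp2d26 the same library had the highest level (606, 5804 and 1313 counts).

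Cyp2c68 had 2295, 1436 and 1740 normalized counts in GF-Ern2-/-, 639, 357 and 431 in COLONIZED-Ern2-/- and 75.2, 211 and 55.2 in CONV-Ern2-/-. Its log2 change was −1.94 ± 0.28 in COLONIZED and −4.02 ± 0.44 in CONV (DESeq2 adjusted p = 1.82e-09 and 8.5e-17). Cyp2f2 had 987, 581 and 550 counts in GF-Ern2-/-, 329, 155 and 238 in COLONIZED-Ern2-/- and 12.5, 62.2 and 8.28 in CONV-Ern2-/-. The 3 groups stood apart in that order, with log2 changes of −1.55 ± 0.34 and −4.71 ± 0.55 (adjusted p = 0.000182 and 1.61e-14). Cyp2c70 had 29.1, 22.1 and 12.5 counts in GF-Ern2-/- and 0 in each CONV-Ern2-/- library, at least 12.5-fold lower, a call lost without CONV-Ern2-/- replicate 1 (0.0155) or GF-Ern2-/- replicate 1 (0.0443). Like Cyp2c70, Cyp4a10 could pass the count minimum only through GF libraries. It had 2.24, 40.1 and 4.17 counts in GF-Ern2-/- and 0 in each COLONIZED-Ern2-/- library. Its call rested on GF-Ern2-/- replicate 2, without which no adjusted p was given, and was also lost without COLONIZED-Ern2-/- replicate 1 (0.0271), 2 (0.0294) or 3 (0.0196). Cyp3a13 (3390, 13037 and 3531 counts in GF-Ern2-/-) had 575, 742 and 875 in COLONIZED-Ern2-/- and 2832, 1389 and 1669 in CONV-Ern2-/-. It fell by 3.20 ± 0.47 in COLONIZED (adjusted p = 2e-09) and by 1.76 ± 0.50 in CONV (adjusted p = 0.00941), the latter call being lost without GF-Ern2-/- replicate 2 (0.0921) or CONV-Ern2-/- replicate 2 (0.105) or 3 (0.138). Without GF-Ern2-/- replicate 2 the log2 change of Cyp3a13 in CONV was −0.82. Cyp4f14 (3001, 10802 and 4287 counts in GF-Ern2-/-, 785, 959 and 908 in COLONIZED-Ern2-/-, 2115, 1660 and 1862 in CONV-Ern2-/-) fell by 2.78 ± 0.41 and by 1.68 ± 0.42, the latter call being lost without CONV-Ern2-/- replicate 2 (0.0333) or 3 (0.0441).

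The called Gst genes again rose. Gsta3 had 169, 190 and 100 normalized counts in GF-Ern2-/-, 520, 319 and 483 in COLONIZED-Ern2-/- and 391, 291 and 455 in CONV-Ern2-/-, with no overlap. Its log2 change was 1.52 ± 0.31 in COLONIZED (DESeq2 adjusted p = 5.7e-05) and 1.31 ± 0.33 in CONV (adjusted p = 0.00268), the latter lost without CONV-Ern2-/- replicate 1 (0.0174) or 3 (0.0699) or GF-Ern2-/- replicate 1 (0.0208) or 3 (0.0163). Gstm3 had 986, 1048 and 865 counts in GF-Ern2-/-, 1588, 1490 and 2092 in COLONIZED-Ern2-/- and 2464, 1431 and 2315 in CONV-Ern2-/-. It rose by 0.83 and by 1.10, calls kept in 3 and 2 of 6 fits with a library left out (lost in COLONIZED without COLONIZED-Ern2-/- replicate 3 (0.0225) or GF-Ern2-/- replicate 1 (0.0127) or 3 (0.0137), and in CONV without CONV-Ern2-/- replicate 1 (0.0131) or 3 (0.0455) or GF-Ern2-/- replicate 1 (0.0259) or 3 (0.0238)). Gsta4 rose by 1.18 in COLONIZED (adjusted p = 0.000381, but 0.0192 and 0.0184 without COLONIZED-Ern2-/- replicate 2 and 3). Sult2b1, which sulfates cholesterol, had 449, 802 and 431 counts in GF-Ern2-/- and 248, 267 and 286 in COLONIZED-Ern2-/-, and fell by 1.08 (adjusted p = 0.00371, above 0.01 without any of the 3 COLONIZED-Ern2-/- libraries, at most 0.0468). No Ugt gene was called.

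Conventional and colonized mice were then compared with each other. In CONV-WT versus COLONIZED-WT 0 of the 70 genes tested were called by DESeq2, where 0.108% of all genes were called. The median log2 change was −0.56 for Cyp, −0.38 for Ugt, −0.11 for Gst and 0.25 for Sult genes, against 0.016 over all genes. Of the 70, 13 had an unadjusted p under 0.05, edgeR called 0 with 9 under 0.05, and up to 6 were called without CONV-WT replicate 3. The smallest adjusted p was that of Cyp2d22 (log2 change −1.41 ± 0.33, adjusted p = 0.017, and 0.000306 without CONV-WT replicate 3). In CONV-Ern2-/- versus COLONIZED-Ern2-/- 9 of 70 were called, 6 higher and 3 lower, where 8.59% of all genes were called (4.86% higher, 3.73% lower), and edgeR called 0, with 19 under an unadjusted p of 0.05. Without the library against its label 6 were called, and 2 in a fit of all 18 libraries. Cyp4f14 was higher in CONV-Ern2-/- by 1.10 ± 0.18 on the log2 scale (adjusted p = 1.35e-07), Cyp3a13 by 1.44 ± 0.29 (adjusted p = 4.15e-05) and Sult2b1 (480, 751 and 643 against 248, 267 and 286 counts) by 1.23 ± 0.22 (adjusted p = 3.51e-06), and none of these groups overlapped. Over all 74 genes, 12 were higher and 6 lower without overlap (17.3% and 18.4% of all genes). Cyp2f2 fell by 3.15 ± 0.55 (adjusted p = 1.4e-06, but 0.0153 without CONV-Ern2-/- replicate 1) and Cyp2c68 by 2.07 ± 0.43 (adjusted p = 7.62e-05, but 0.036 without that library). The colonocyte markers were also higher in CONV-Ern2-/-, 5 of 6 by the test, and 4 of 7 goblet markers (median log2 change −1.21) and 1 of 4 hepatocyte markers were called lower. Of the mesenchymal, muscle and endothelial markers 1 each was called higher (medians 3.29, 2.46 and 2.83). Their part in the differences was not tested.

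Between genotypes, differences were found in conventional mice. In CONV-Ern2-/- versus CONV-WT 8 of 70 genes were called and all 8 were higher in Ern2-/-, where 2.87% of all genes were called (1.02% higher, 1.86% lower). These were Cyp4f14, Cyp3a13, Cyp4b1, Cyp2d22, Cyp2d26, Cyp2d34, Gstk1 and Mgst3. Without overlap 15 genes were higher and 2 lower (9.54% and 11.6% of all genes). The edgeR test called 0, with 21 at an unadjusted p under 0.05, and leaving out 1 library gave 2 (without CONV-WT replicate 1) to 13 genes (without CONV-WT replicate 3). Cyp4f14 had 667, 663 and 581 normalized counts in CONV-WT and 2115, 1660 and 1862 in CONV-Ern2-/- (log2 change 1.56 ± 0.19, DESeq2 adjusted p = 1.13e-12, edgeR adjusted p = 0.0481). Cyp3a13 had 335, 461 and 424 counts in CONV-WT and 2832, 1389 and 1669 in CONV-Ern2-/- (2.28 ± 0.34, adjusted p = 1.24e-08). These 2 genes kept the call without any 1 library, and their groups were far apart.

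The other 6 calls were each lost in some fits that left out 1 library. Where they were lost, the log2 change stayed about as large for Cyp2d34 (1.40 and 1.41), Mgst3 (0.85 to 0.90) and Gstk1 (0.96 to 1.07). Cyp2d22 had 48.1, 80 and 84 counts in CONV-WT and 702, 169 and 237 in CONV-Ern2-/- (log2 change 2.40, adjusted p = 0.00159, but 0.029 and 0.0187 without CONV-WT replicate 1 and 2 and 0.0271 without CONV-Ern2-/- replicate 1). Cyp4b1 had 58.5, 168 and 163 counts in CONV-WT and 2042, 307 and 494 in CONV-Ern2-/- (2.88, adjusted p = 0.00246, but 0.0796 without CONV-Ern2-/- replicate 1 and 0.0239, 0.0112 and 0.0338 without CONV-WT replicate 1, 2 and 3). Mgst3, a membrane-bound enzyme of glutathione conjugation and peroxide reduction, had 4371, 5420 and 4120 counts in CONV-WT and 9134, 7421 and 10157 in CONV-Ern2-/- (0.94, adjusted p = 0.00117, but 0.0497 and 0.0781 without CONV-Ern2-/- replicate 1 and 3 and 0.0955 without CONV-WT replicate 1). CONV-Ern2-/- replicate 1 had the highest Cyp2d22, Cyp2d26 and Cyp4b1 levels of its group, and the groups did not overlap for any of the 8 genes. Without that library the log2 changes of Cyp2d22, Cyp2d26 and Cyp4b1 were 1.51, 1.40 and 1.61. Cyp2d34 (1.39) was lost without CONV-WT replicate 1 (0.0314) or 2 (0.0391), Cyp2d26 (1.87) without CONV-Ern2-/- replicate 1 (0.0268) or 3 (0.0185) or CONV-WT replicate 1 (0.0247) or 2 (0.0192), and Gstk1 (1.13) without CONV-Ern2-/- replicate 1 (0.114) or 3 (0.122) or CONV-WT replicate 1 (0.141) or 2 (0.157). Beside these, Cyp2c55 was higher in each CONV-Ern2-/- library than in any CONV-WT library (1.90 ± 0.53, adjusted p = 0.0114). In the same comparison the colonocyte markers were higher in CONV-Ern2-/-, 3 of 6 by the test and with sums of 64248 to 84548 against 21225 to 30949, while 3 of 7 goblet markers (median −1.38) and 1 of 5 stem markers (median −1.13) were called lower, and their part in the enzyme levels was not tested.

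**Figure D5:**
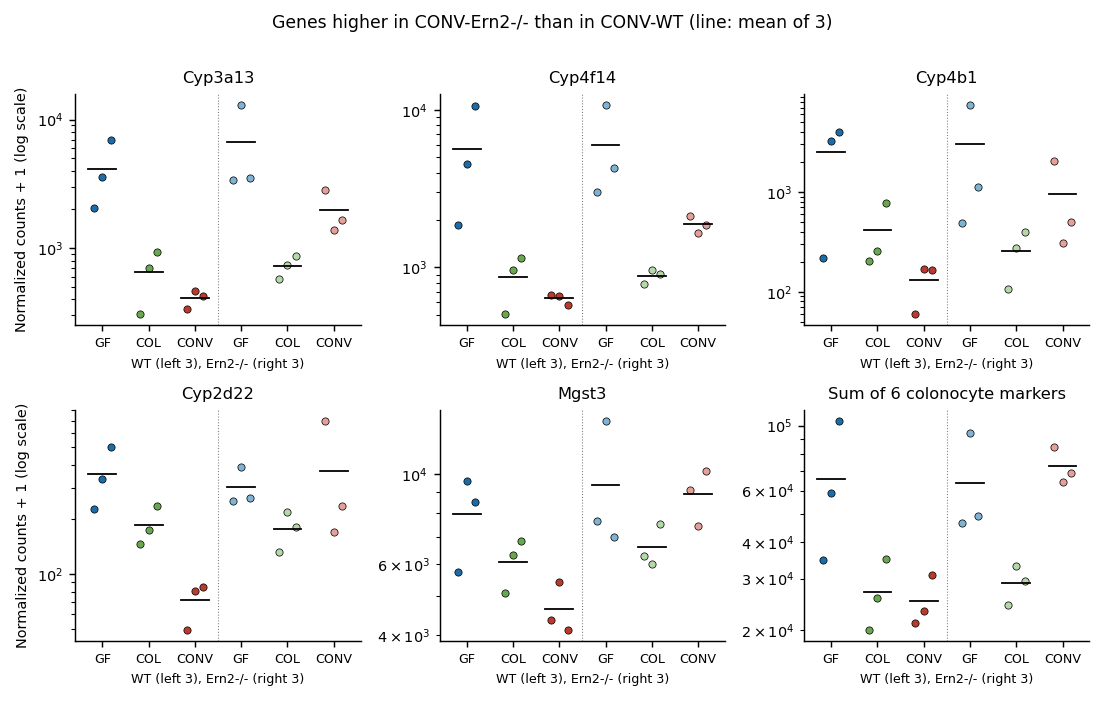
Normalized counts plus 1 (log axis) of Cyp3a13, Cyp4f14, Cyp4b1, Cyp2d22 and Mgst3 and the sum of 6 colonocyte markers in the 6 groups, with 3 libraries and their mean per group. In CONV mice the Ern2-/- points lie above the WT points in each panel, the marker sum included (64248 to 84548 against 21225 to 30949).

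Without microbes no difference between genotypes was called: in GF-Ern2-/- versus GF-WT 0 of 74 genes passed by DESeq2 or edgeR, with 1 (Gstm3) under an unadjusted p of 0.05 in each, where 0.035% of all genes were called. Without the libraries against their label 9 were called, resting on GF-Ern2-/- replicate 2 alone. In COLONIZED-Ern2-/- versus COLONIZED-WT 0 of 70 passed by either tool, with 13 under 0.05 in each (1.2% of all genes called by DESeq2 and 0.00786% by edgeR), and 2 passed without COLONIZED-Ern2-/- replicate 1. The interaction of genotype with CONV versus GF called 0 of 73 genes (0.177% of all genes, 7 under an unadjusted p of 0.05, edgeR 0 with 5), so that a different response of the genotypes was not shown for any gene. The nearest were Cyp2d22, with a log2 change of −2.35 in WT and of 0.30 (adjusted p = 0.824) in Ern2-/- (difference 2.63 ± 0.70, adjusted p = 0.0393), and Cyp2d34 (1.76 ± 0.49, adjusted p = 0.0511), while Cyp3a13 (1.59 ± 0.77) and Cyp4f14 (1.46 ± 0.77) had adjusted p of 0.522 and 0.599. The interaction with COLONIZED versus GF also called 0 of 74 (0.028% of all genes, 5 under 0.05, edgeR 0 with 5), and the 4 genes called without the libraries against their label (Gstk1, Cyp2j6, Gstp1 and Gsto1) rested on GF-Ern2-/- replicate 2 as the lone library of its group. That library stood above the others of its group for each of the 4, as for Cyp2j6 with 1229, 4147 and 1262 counts, so that nothing is read from these calls.

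The other genes of the pathway were taken from lists of 16 regulators, 45 further phase 1 and 2 enzymes and 15 transporters. Of the 15 regulators tested 1 fell in CONV-WT and 2 in COLONIZED-WT versus GF-WT, and 1 and 2 in Ern2-/-, with none higher, where 11.0%, 17.8%, 4.1% and 7.65% of all genes were called in either direction. In WT the shares of the regulators are under those of all genes, and nothing is read from them about the regulators as a list. The xenobiotic receptor CAR (Nr1i3) fell in all 4 comparisons, with 59.9, 106 and 179 normalized counts in GF-WT, 15.1, 15.8 and 25.6 in CONV-WT and 2.14, 12.5 and 15.1 in COLONIZED-WT, and with 116, 67.2 and 104 in GF-Ern2-/-, 2.14, 9 and 9.03 in COLONIZED-Ern2-/- and 28.2, 24.4 and 27.6 in CONV-Ern2-/-. No library with microbes reached the GF range, and the log2 change of Nr1i3 was −2.66, −3.54, −1.85 and −3.89 in CONV-WT, COLONIZED-WT, CONV-Ern2-/- and COLONIZED-Ern2-/- (DESeq2 adjusted p = 1.38e-05, 1e-08, 0.00126 and 4.39e-11). The receptor PXR (Nr1i2) fell by 0.52 in COLONIZED-WT and by 0.56 in COLONIZED-Ern2-/- (adjusted p = 0.000222 and 0.0073), the latter call being kept only without GF-Ern2-/- replicate 2 (otherwise 0.0211 to 0.0577). The Nr1i3 call in CONV-Ern2-/- was lost without CONV-Ern2-/- replicate 2 (0.0119) or GF-Ern2-/- replicate 1 (0.0477) or 3 (0.0166). The levels of Ahr, Nfe2l2 (NRF2) and Hnf4a were not called in any comparison with GF, where Hnf4a changed by −0.18 to 0.45.

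Of the 43 further enzymes tested, 4 fell in CONV-WT, 6 rose and 7 fell in COLONIZED-WT, 1 rose and 2 fell in CONV-Ern2-/- and 5 fell in COLONIZED-Ern2-/- versus the GF group, against the same shares of all genes, and with counts this small nothing is read from them about the enzymes as a list. The flavin monooxygenase Fmo4 fell in all 4 (log2 change −1.67, −1.27, −1.57 and −1.70 in that order, the CONV-WT call being lost without GF-WT replicate 3 (0.0104) and the CONV-Ern2-/- call without CONV-Ern2-/- replicate 2 (0.0175) or 3 (0.0352) or GF-Ern2-/- replicate 1 (0.0544) or 2 (0.016)), from 123 to 131 counts in GF-WT to 46.8 to 59.5 in COLONIZED-WT and 24.7 to 60.3 in CONV-WT. The quinone reductase Nqo1, a usual NRF2 target, had a log2 change of 1.02 in COLONIZED-WT (DESeq2 adjusted p = 0.00413), a call lost without COLONIZED-WT replicate 1 (0.0307), 2 (0.0274) or 3 (0.0511) or GF-WT replicate 2 (0.0396). Of the transporters (15 tested, and 14 in COLONIZED-Ern2-/-), 5 fell in CONV-WT, 3 rose and 1 fell in COLONIZED-WT, 1 rose in CONV-Ern2-/- and 1 rose and 1 fell in COLONIZED-Ern2-/-. Of all genes 5.28% fell in CONV-WT, 9.07% rose and 8.7% fell in COLONIZED-WT, and 1.47% rose in CONV-Ern2-/-. In COLONIZED-Ern2-/- 3.83% rose and 3.82% fell, and nothing is read from these small counts about the transporters as a list. In CONV-Ern2-/- versus CONV-WT 4 of 43 further enzymes and 4 of 15 transporters were called, each higher in Ern2-/-, where 2.87% of all genes were called (1.02% higher) and the colonocyte markers were higher too, as given above. Among the transporters were the efflux pump Abcg2 (407, 639 and 610 counts in CONV-WT, 3318, 1320 and 1749 in CONV-Ern2-/-, log2 change 1.95, adjusted p = 0.000143, called without any 1 library) and the prostaglandin carrier Slco2a1 (103, 176 and 274 against 2881, 602 and 640, log2 change 2.91, adjusted p = 0.000696, but 0.0107 without CONV-Ern2-/- replicate 1 and 0.0132 without CONV-WT replicate 2). Both were highest in CONV-Ern2-/- replicate 1.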

How the data were processed

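Colon crypt RNA was made into stranded mRNA libraries (KAPA), sequenced as 75-cycle single-end reads and, per the labels, aligned with STAR to mm10. The authors deposited raw counts per gene, one column a library. The annotation and the strand setting used in counting are not given in the sources used here. Each comparison was fitted with DESeq2 1.42.0 (R 4.3.3) on the counts of its own 6 libraries (interactions on 12) over the whole table, with Benjamini-Hochberg adjustment over all genes tested and a call at an adjusted p under 0.01, as in the study. Normalized counts are counts divided by DESeq2 size factors of all 18 libraries. Alternatives were edgeR 4.0.16 (quasi-likelihood), TMM factors, a filter of 10 counts in 3 libraries, a Y-linked covariate, 1 fit of all libraries, the replicate number as a block, and leaving out each library or those against their label. Scripts were tested on simulated data. The named genes were, per family, those of smallest adjusted p against GF, all called between genotypes or by interaction, the 6 of smallest adjusted p between CONV and COLONIZED and a list of well known genes. Cyp11a1, Cyp27a1, Cyp2c65, Cyp2c66, Cyp2c67, Cyp2c70, Cyp2d9, Cyp2w1, Cyp3a44, Cyp4a10, Cyp4f13, Cyp4f16, Cyp4v3, Gstm5, Gsto1, Gstz1 and Sult1d1 were named in addition, with their values known. The genes and lists were chosen with earlier results of these data known. Replicate numbers were not used to pair the samples in the main fits, and whether they pair them is not known. For no comparison were all 3 correlations of same-numbered libraries over 0.1. In COLONIZED-Ern2-/- versus GF-Ern2-/- each library still correlated best with its own number, as given below.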

Additional observations from a re-analysis of the deposited data

How the results depend on the processing

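The genes named by the rules given above had 77 calls. Of these, 46 remained in every fit that left out 1 library, and none changed direction. Calls of the genes named in addition are not among the 77. Some of them were lost as well, such as those of Cyp2c67, Cyp3a44 and Gstz1. TMM factors kept 77 of 77, a filter on low counts 75 of 76, the replicate block 70 of 76, 1 fit of all libraries 56 of 77, the Y-linked covariate 52 of 76 and edgeR 13 of 76, and without the libraries against their label 20 of 33 remained. With edgeR the number of genes called was 0 in CONV-WT versus GF-WT, 13 in COLONIZED-WT versus GF-WT, 1 in CONV-Ern2-/- versus GF-Ern2-/-, 3 in COLONIZED-Ern2-/- versus GF-Ern2-/-, 0 in CONV-Ern2-/- versus COLONIZED-Ern2-/- and 0 in CONV-Ern2-/- versus CONV-WT. The Y-linked covariate gave 11 in COLONIZED-WT versus GF-WT. Without the libraries against their label the number was 8 in CONV-Ern2-/- versus GF-Ern2-/-, 9 in GF-Ern2-/- versus GF-WT, 2 in COLONIZED-Ern2-/- versus COLONIZED-WT and 4 in the interaction of genotype with COLONIZED. The fit of all libraries gave 2 in CONV-Ern2-/- versus COLONIZED-Ern2-/- and 5 in CONV-Ern2-/- versus CONV-WT, and TMM gave 1 in CONV-WT versus COLONIZED-WT. With the replicate block 22 genes were called in CONV-WT versus GF-WT, 33 in COLONIZED-WT versus GF-WT, 13 in CONV-Ern2-/- versus GF-Ern2-/-, 23 in COLONIZED-Ern2-/- versus GF-Ern2-/-, 1 in CONV-WT versus COLONIZED-WT, 10 in CONV-Ern2-/- versus COLONIZED-Ern2-/-, 11 in CONV-Ern2-/- versus CONV-WT and 2 in COLONIZED-Ern2-/- versus COLONIZED-WT. In COLONIZED-Ern2-/- versus GF-Ern2-/- every library correlated best with its own number (0.402, 0.0608 and 0.151), a hint from the data only. Leaving out 1 library gave 16 to 31, 24 to 37, 9 to 21 and 14 to 27 genes in the 4 comparisons with GF (CONV-WT, COLONIZED-WT, CONV-Ern2-/-, COLONIZED-Ern2-/-), 0 to 6 in CONV-WT versus COLONIZED-WT, 6 to 11 in CONV-Ern2-/- versus COLONIZED-Ern2-/-, 2 to 13 in CONV-Ern2-/- versus CONV-WT, 0 to 2 in COLONIZED-Ern2-/- versus COLONIZED-WT and 0 to 1 in the interaction with CONV. Of 23 named changes that were not called, 17 were called under some alternative, and Cyp2c55 in CONV-WT versus GF-WT was −0.036 when replicate 1 of GF-WT was left out and at most 1.10, when replicate 3 was. The cause of these changes was not tested. Sult4a1, Cyp3a44 and Cyp4a10 had at most 24.3, 24.0 and 40.1 normalized counts in a library, so that their values carry a large counting error.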
